A study of Mus musculus with 14 samples.

Results

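The genes of the cytosolic ribosomal proteins were described in cultured microglia, the macrophages that reside in brain tissue, of the genotypes TIMP2 KO and WT. Members were the protein-coding genes with a symbol of Rpl or Rps, a number and at most 1 closing letter a, x or l, together with Rplp0, Rplp1, Rplp2 and Rpsa, that passed the filter on low counts. Of 80 such genes among the 49315 of the count table, 78 passed, 31 of the small and 47 of the large subunit, within 15700 tested genes. The other 2 were Rpl10l, with 0 counts in all 14 libraries, and Rpl3l, with 23 counts in all. The pattern does not take in 7 tested genes that are close to it by name or function, among them Rps3a1, Rpl36al, Fau, Rack1, Rpl22l1 and Rpl7l1, and these are given beside the members.

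There were 7 KO and 7 WT libraries. Each was a separate pool of forebrains from 5 pups at postnatal day 6 to 7, males and females together, on a C57BL/6 background. KO pups lacked TIMP2 (tissue inhibitor of metalloproteinases 2) in every tissue and not in microglia alone. Cells of both genotypes were selected with CD11b microbeads and cultured with serum before poly(A) RNA was sequenced, so the RNA is that of cultured cells. Between 38875344 and 48070236 reads were counted per library. Timp2 was lower in each KO library, at 119.6 to 129 CPM (counts scaled to equal library size) against 398 to 495 CPM in WT (log2 fold change −1.92 ± 0.046 SE, adjusted p = 1.53e-12 by edgeR), with no overlap between the genotypes. The 12 microglial markers summed to 12515 to 14595 CPM in KO and 11989 to 14040 CPM in WT. Astrocyte markers were also present, at 28.6 to 143 CPM in KO and 35.2 to 280.3 CPM in WT over 8 genes. Replicate 5 of each genotype stood apart in the summed level of the members, and the sources used here do not say whether the replicate numbers mark a batch, so values without both of these libraries are given below.

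Each ribosome is built from a small subunit, which reads the messenger RNA, and a large subunit, which joins the amino acids, and each subunit holds many proteins in mostly single copies. Cells therefore make these proteins in step. Their messenger RNAs share a cytosine followed by a run of pyrimidines at the 5′ end, the terminal oligopyrimidine (TOP) motif, through which mTOR signalling adjusts their translation with little change in transcript level. In mouse and human genomes most of these genes have many processed pseudogenes, which can draw reads from the parent gene or lend reads to it.

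The start sites show stretches that were more frequent among the members than among all genes. RefSeq promoter windows on GRCm38.p6 were at hand for 58 of the 78 members. The letters CTTTC, a short form of the pyrimidine run, were searched on the gene's own strand from 50 bases before to 50 bases after the start. They stood in the windows of 32 of the 58 members (55.2%), against 14.6% of all 27025 genes with a window and 12.5% of the 11116 tested genes among them. The letters CCGGAAG, which ETS-family factors recognise, were searched on both strands of the whole window, from 250 bases before the start to 50 after it. They were found for 25 of the 58 members (43.1%) and for 9.93% of all genes with a window (19.0% of the tested ones). A match describes these letters only, and it can lie away from the start. The nearest CTTTC began 22 bases after the start in Rpsa, 31 in Rpl31 and 37 in Rpl39. Rps13, Rplp0, Rpl10, Rps12, Rpl37a and Rpl14 had no CTTTC in the searched window, whereas most of the windows printed here hold it. The windows that follow are of members named in the results, each with 15 bases before and 15 bases from the start onwards, 5′ to 3′ on the gene's strand, with CTTTC in capitals where it falls inside. Rps26 (chr10:128626492-128626521, minus strand) followed the other members most closely, Rpl7a (chr2:26910792-26910821, plus) varied least between libraries, Rplp2 (chr7:141447636-141447665, plus) is a stalk protein and Rps10 (chr17:27635230-27635259, minus) is among the members with the smallest p. Rps27 (chr3:90213634-90213663, minus) is shown for comparison with its copy Rps27l (chr9:66946071-66946100, plus, 1 of 2 listed starts), and neither listed start of Rps27l had CTTTC within 50 bases.
Rps26: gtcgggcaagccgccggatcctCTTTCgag
Rpl7a: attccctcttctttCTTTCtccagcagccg
Rplp2: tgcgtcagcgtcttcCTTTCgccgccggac
Rps10: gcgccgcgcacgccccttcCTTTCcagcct
Rps27: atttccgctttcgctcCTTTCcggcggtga
Rps27l: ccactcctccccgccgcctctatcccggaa
In Rplp2 the motif began at the listed start itself, and in Rpl7a 1 base before it. The mean correlation of a member with the other members, described further on, had a median of 0.66 among the 32 members with CTTTC and 0.69 among the 26 without it.

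Levels were compared between members per length, as CPM per kilobase of the principal annotated mRNA. The median was 443 for the small subunit members and 395 for those of the large subunit. The quartiles of the 78 members were 301 and 517. The acidic stalk protein Rplp1, which helps recruit elongation factors to the large subunit, was highest at 1084, followed by the small subunit proteins Rps12 (957) and Rps29 (818) and by the large subunit protein Rpl10 (798), which joins late in subunit assembly. At the other end stood Rpl39l (2.15), Rps15a (37.1), Rps20 (66.8) and Rpl24 (85.6). The values of Rps15a and Rps20 rest on annotated mRNAs of 5130 and 3706 bases, against a median of 767.5 bases over the members. By CPM without length, at medians of 190.1 and 246.0 in KO, both lay among ordinary members. Rps27l, at 121 per kilobase, was the next above them.

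**Figure D1:**
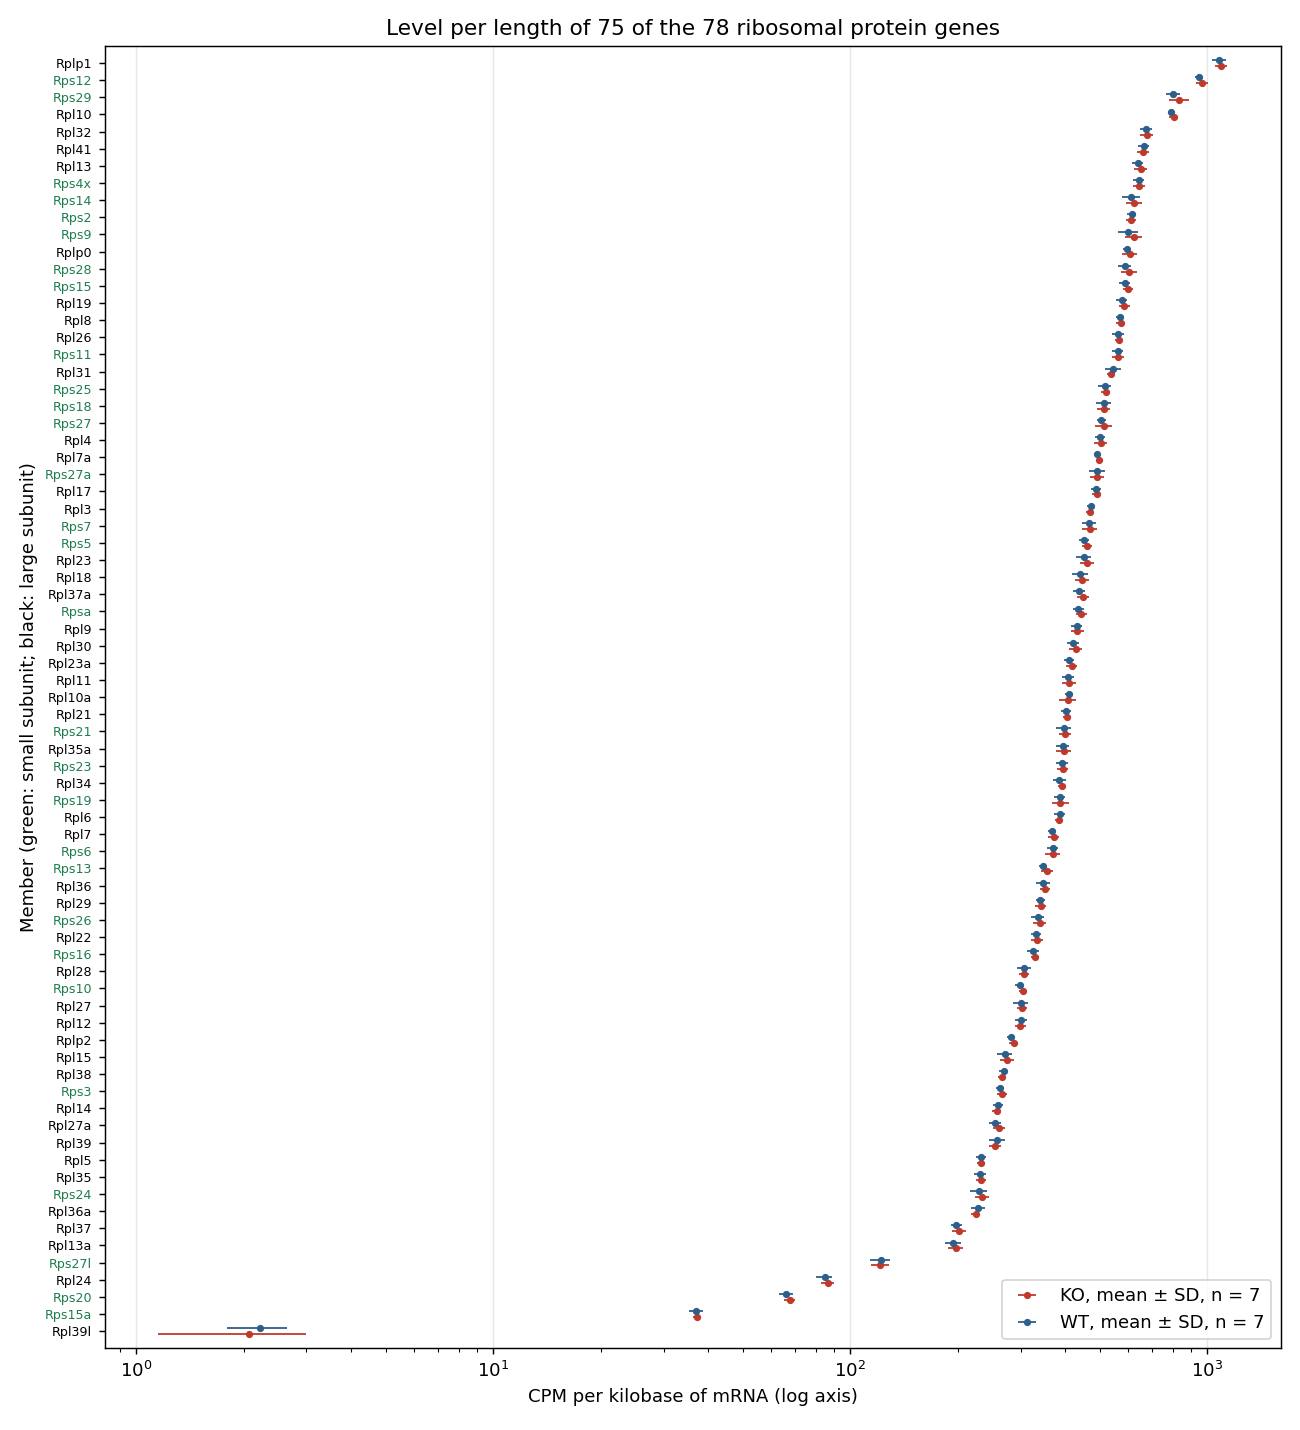
Mean level of 75 of the 78 members in KO (red) and WT (blue) libraries, in CPM per kilobase of mRNA on a log axis, with bars of 1 SD over 7 libraries. The genotypes lie on top of each other for each member drawn, and Rpl39l stands far below the others with the widest bars.

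Rplp0, the base on which the stalk is built, had the most reads of all members, at 769 CPM in the lowest, 818 in the median and 881 in the highest KO library. In WT it had 783, 800 and 839 CPM, within the KO range. Rplp1 had 521, 534 and 583 CPM in KO and 513, 532 and 577 in WT. Rplp2, the partner of Rplp1 in the stalk, had 267, 274 and 293 CPM in KO and 265, 271 and 278 in WT. The KO and WT libraries overlapped for each of the 3 stalk proteins, and KO replicate 4 was the highest KO library for Rplp0 and Rplp2. Rpsa, a small subunit protein that also serves as a laminin receptor, ranged from 683 to 758 CPM in KO and from 663 to 744 in WT.

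As a share of the counted reads, the 78 members held between 2.5% and 2.7% of each library. The KO mean was 2.60% ± 0.059 (SD, n = 7). The WT mean was 2.60% ± 0.070 (SD, n = 7), so KO minus WT was 0.0046 percentage points, and 0.0086 without replicate 5 of both genotypes. The sign turned without KO replicate 5 (−0.014), KO replicate 3 (−0.00027) or WT replicate 3 (−0.0089), 2 (−0.0031) or 6 (−0.00058). By replicate number from 1 to 7, the KO libraries held 2.57, 2.55, 2.63, 2.60, 2.71, 2.61 and 2.53%. The WT libraries held 2.62, 2.55, 2.52, 2.62, 2.73, 2.57 and 2.57%. Replicate 5 was the highest library of both genotypes, and the ranges of the genotypes overlapped almost completely. The 31 small subunit members took 1.05% ± 0.027 of the reads in KO and 1.04% ± 0.031 in WT. The 47 large subunit members took 1.56% ± 0.032 and 1.55% ± 0.039. The ratio of small to large subunit counts lay between 0.666 and 0.679 in all 14 libraries, with means of 0.672 ± 0.0041 in KO and 0.670 ± 0.0042 in WT, and was again highest in replicate 5 of each genotype. No test was run on these sums, which are descriptions of a chosen list. Pseudogenes named for these genes (279 annotated, 230 with at least 1 count) held 0.0050 to 0.0060% of the reads.

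**Figure D2:**
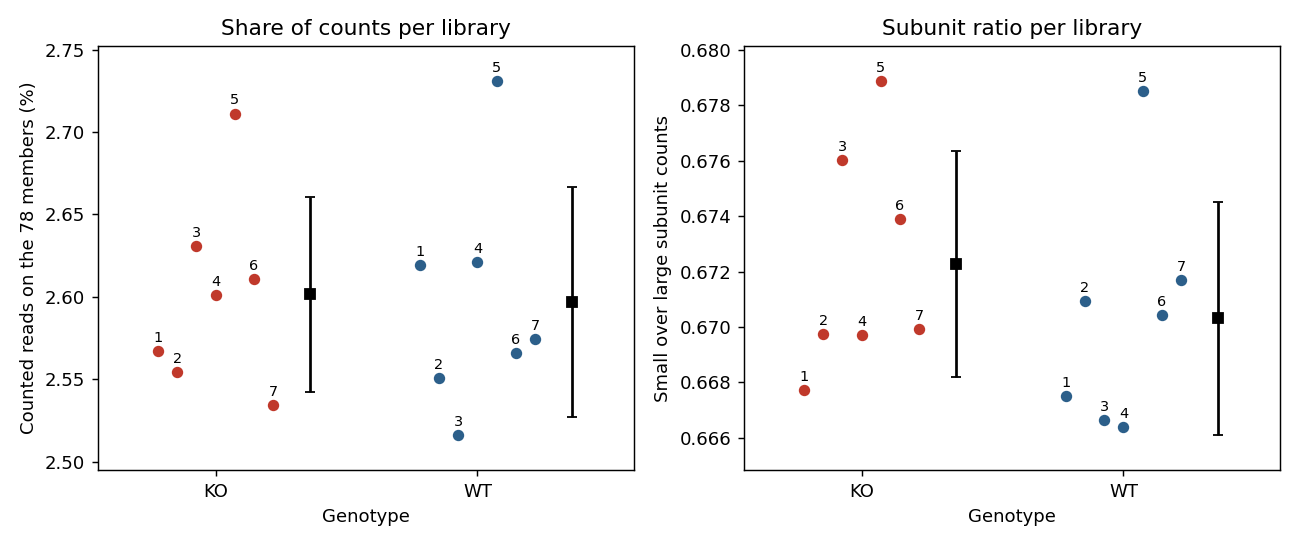
Percent of counted reads on the 78 members (left) and ratio of small to large subunit counts (right) in each library, with the replicate number above each point and black squares and bars for the mean ± SD of 7 libraries. KO spans 2.53 to 2.71% and WT 2.52 to 2.73%, and replicate 5 is the highest point of each genotype in both panels.

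The comparison asked whether KO and WT cultures, both grown with serum, differed in the level of any member. The paper describes serum as rich in TIMP2, and TIMP2 in the medium was not measured here. None passed the threshold of an adjusted p under 0.05 (edgeR quasi-likelihood test, Benjamini-Hochberg over 15700 genes), against 3 of all tested genes (0.0191%). At an unadjusted p under 0.05 there were 0 members, against 529 of all genes (3.37%), and by DESeq2 and limma-voom 0 members passed at either level. KO and WT libraries overlapped for each of the 78, whereas 13 of all genes (0.0828%) had no overlap. The smallest p of a member was 0.15, and its adjusted p was 0.943. The mean count per library was 2511 to 35328 for the 77 members other than Rpl39l, so that counting error alone is 0.53 to 2.0% of each value.

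The fitted differences in CPM, a level relative to the whole library, were small. Over the 77 members other than Rpl39l, fitted log2 fold changes lay between −0.026 and 0.059. The 95% confidence intervals, each for a single member and not for all jointly, reached no further than −0.10 and 0.15, or 0.932 and 1.11 fold. Amounts per cell were not measured. The median standard error was 0.031 for the members and 0.078 over all tested genes. The median log2 fold change of the 78 members was 0.0097, beside 0.0016 for all genes. By fitted sign 60 members were higher in KO (76.9%) beside 50.8% of all genes. As the members rise and fall together, 60 of 78 is not a count of independent genes. With upper-quartile scaling, with library totals alone or without KO replicate 5 the median of the members was −0.0038, −0.0018 and −0.00011. The median of all genes was −0.012, −0.0099 and −0.0017 in these settings. Without replicate 5 of both genotypes the median of the members was 0.015. The median was 0.015 for the small and 0.0090 for the large subunit members.

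**Figure D3:**
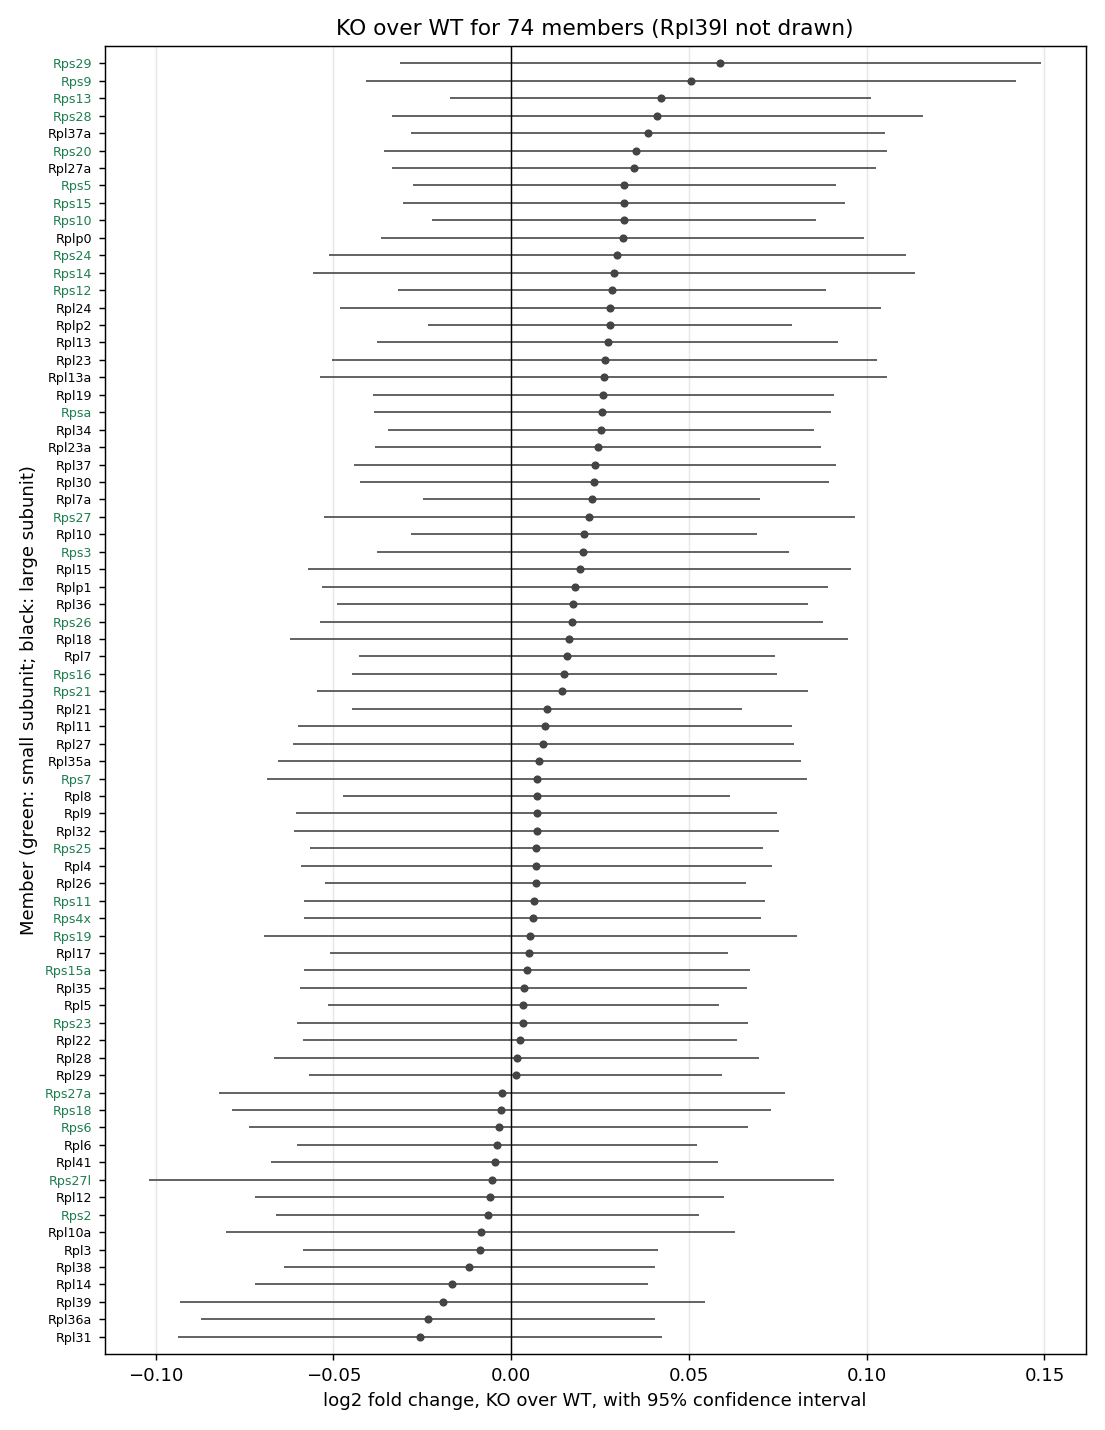
Log2 fold change of KO over WT with its 95% confidence interval for 74 members, sorted by value, with small subunit members labelled in green. Each interval includes 0, and the outermost bounds are −0.10 and 0.15. Rpl39l is not drawn, as its interval is far wider.

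Among the small subunit proteins, the smallest p belonged to Rps13, which binds ribosomal RNA early in assembly. It had 201, 209 and 223 CPM in the lowest, median and highest KO library and 194, 204 and 212 CPM in WT (log2 fold change 0.042 ± 0.028 SE, adjusted p = 0.943, edgeR). Rps29, a short zinc-binding protein of the subunit head, had 293.6, 330.3 and 352 CPM in KO and 297, 312 and 342 in WT. Its log2 fold change of 0.059 ± 0.042 was the largest positive one and had a 95% interval from −0.031 to 0.15. For both genes the KO range extended above that of WT, but most libraries of the genotypes lay within each other's range. Rps10, also of the head, gave 0.032 ± 0.025. It had 260.0 to 281.7 CPM in KO and 252.9 to 273 CPM in WT, so that the genotypes overlapped here too.

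Among the large subunit proteins, Rpl37a, which binds zinc, had 235, 249 and 268 CPM in the lowest, median and highest KO library and 232, 243 and 260.0 in WT. Its log2 fold change was 0.038 ± 0.031 (adjusted p = 0.943, edgeR). The lowest fitted values besides Rpl39l were those of Rpl31 at −0.026 ± 0.032, which sits near the exit of the peptide tunnel, and Rpl36a at −0.023 ± 0.030. Rpl14 gave −0.017 ± 0.026. Exons of Rpl31 overlap those of Tbc1d8 on the opposite strand, and those of Rps10 overlap Gm15420. The strand setting of the counting is not given in the sources used here, so for the 18 members with such an overlap reads of the 2 genes cannot be told apart. Rpl38 lies 3.63 Mb from Timp2 on chromosome 11, closer than the 6 other members there, and had a log2 fold change of −0.012 ± 0.024. The members lay on 19 chromosomes.

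The copies of ribosomal protein genes behaved differently from each other. Rpl39l, a retained copy of Rpl39 known mainly from male germ cells, had 0.831, 1.67 and 3.03 CPM in the lowest, median and highest KO library and 1.22, 1.80 and 2.32 CPM in WT. The mean was 75.1 counts, so that counting error alone is 11.5%, and the log2 fold change was −0.096 with a 95% interval from −0.62 to 0.42. Rpl39 itself had a median of 156.3 CPM in KO and 155.8 in WT. Rps27l, a copy of Rps27 that p53 is known to induce, had 57.3, 59.2 and 67.6 CPM in KO and 56.2, 61.0 and 66.6 in WT (log2 fold change −0.0055 ± 0.045). Rps27 had 160.2, 178 and 193 CPM in KO and 167, 173 and 182 in WT. The KO and WT ranges of both copies and both parent genes overlapped.

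The members varied little but did so together. The SD of log2 CPM within a genotype had a median of 0.055 over the members, against 0.145 over all tested genes and 0.070 over the 3606 other genes at least as abundant as the lowest member other than Rpl39l. Rpl7a (0.031) and Rpl10 (0.032) varied least, and Rpl39l (0.48) and Rps27l (0.088) most. With genotype means removed, the 3003 pairs of members had a median Pearson correlation of 0.70 over the 14 libraries. Of these pairs 81.6% had an r above 0.5, against 9.21% of all pairs of tested genes, whose median r was −0.0002. Only 29 pairs of members had an r below 0. The median r was 0.73 between small subunit members, 0.67 between large subunit members and 0.71 across the subunits. These are descriptions without a test, as all points share their libraries and scaling.

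The common pattern separated the libraries in a few steps. Replicate 5 of KO and of WT stood highest, with a median deviation of the members from their genotype mean of 0.077 and 0.093 on the log2 scale. In each of these libraries 77 of 78 members were above the genotype mean, and 58 and 65 members had their highest value of the genotype there. WT replicate 3 (−0.054) and KO replicate 7 (−0.052) stood lowest. A single component held 69.4% of the variance of the 77 members other than Rpl39l, and the next 9.93%. Without both libraries numbered 5, an alternative chosen after seeing the data, the median r between members was 0.51.

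**Figure D4:**
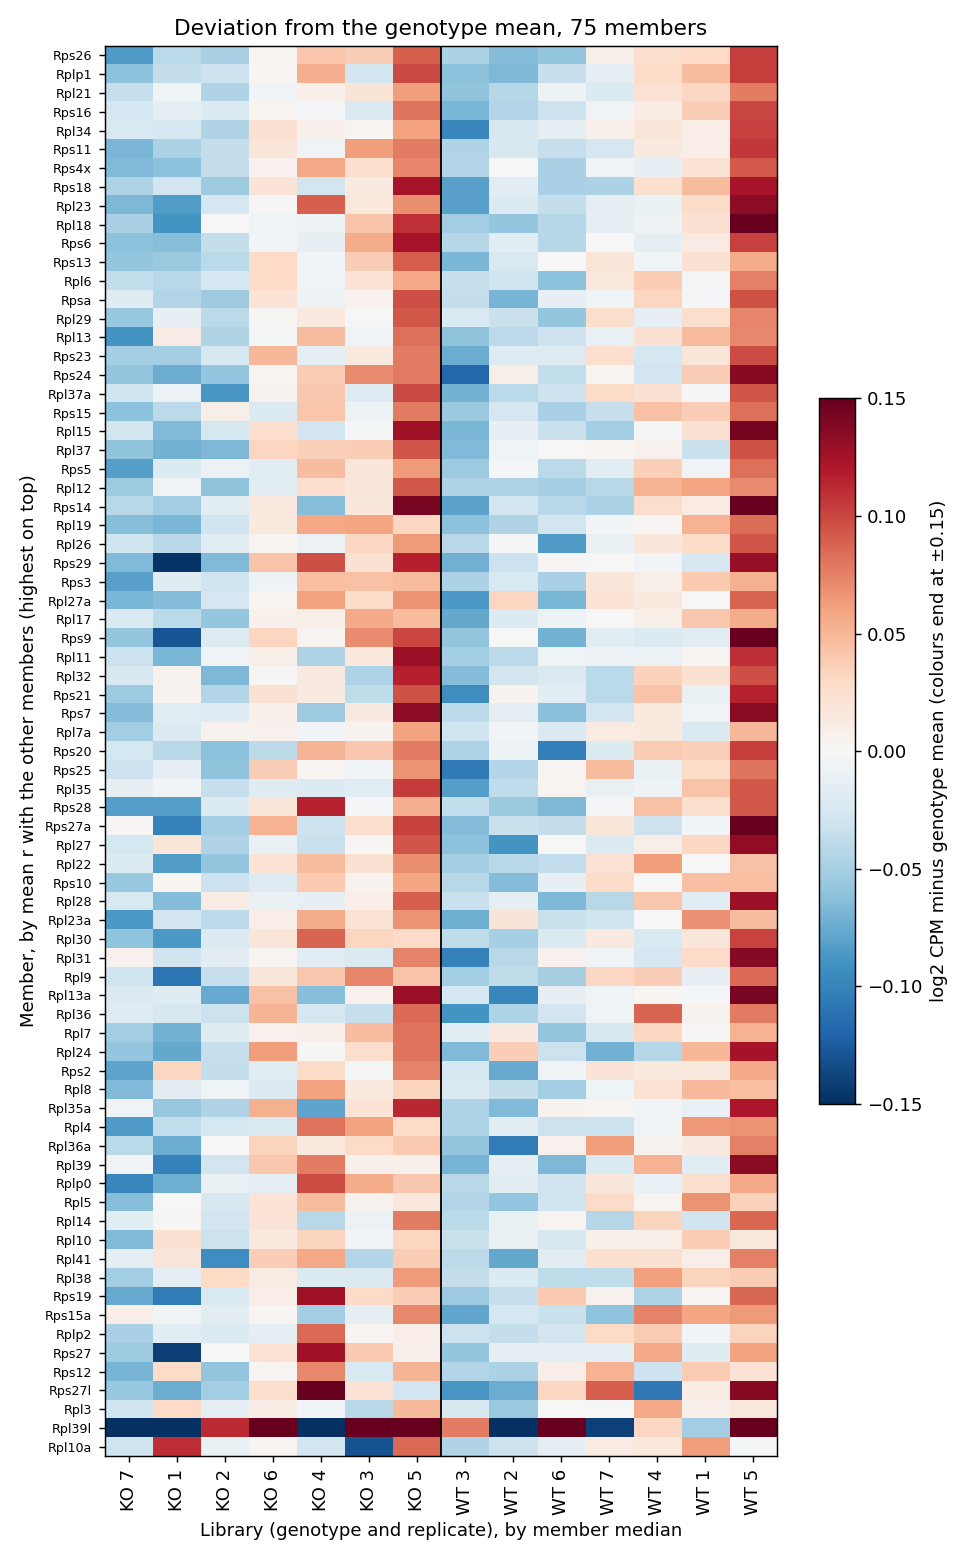
Log2 CPM of 75 members minus the genotype mean in each library, with KO on the left and WT on the right, libraries sorted by the member median and members sorted by their mean correlation with the others. The column of replicate 5 is red in both genotypes for all members drawn but Rps27l in KO and Rpl10a in WT, and Rps27l, Rpl3, Rpl39l and Rpl10a, in the lowest 4 rows, depart from the columns.

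Some members followed the family closely and a few did not. Rps26, which lies at the mRNA exit channel, had the highest mean correlation with the other members (0.78), and Rplp1 (0.77) and Rpl21 (0.76) were also near the top. The lowest belonged to Rpl10a (0.16), which had a mean count of 12900 and thus a counting error of 0.88%. Its KO libraries ranged from 271 CPM in replicate 3 to 320.1 in replicate 1, although the family as a whole stood below its mean in KO replicate 1 (−0.040) and above it in replicate 3 (0.016). In WT Rpl10a ranged only from 289.5 to 312.0 CPM. Its exons overlap CT025652.2 on the opposite strand, and the part of that gene in these values was not tested. Rpl39l (0.24), Rpl3 (0.42) and Rps27l (0.44) followed. Rpl3, one of the largest proteins of the large subunit, had a within-genotype SD of 0.034. Rpl7a and Rpl10, with a smaller SD, had mean correlations of 0.68 and 0.56.

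Since p53 acts on Rps27l, the copy was also set against a list of 11 genes of the p53 response. Its correlation with the median of that list was 0.71 (Spearman 0.71, n = 14 libraries) and 0.51 without the 2 most distant libraries, beside 0.51 with the median of the other members. Singly, the 11 genes gave r from −0.32 to 0.86 with Rps27l (median 0.65), and 7 were above 0.5. The highest was with Ccng1, a p53 target. For Rps27 they gave −0.057 to 0.87 (median 0.62), and 6 were above 0.5. Rps27 had an r of 0.73 with the same list median (Spearman 0.49) and 0.065 without the 2 most distant libraries. The copy and its parent correlated with each other at 0.60, and Rpl39l with Rpl39 at 0.014. None of the 11 p53 genes had an unadjusted p under 0.05 for KO over WT.

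The pattern of the members moved with the length of other transcripts. Among the 820 other tested genes with an mRNA of at most 1000 bases, the median deviation per library correlated with that of the members at r = 0.83 (Spearman 0.64, n = 14). The value was higher among the 1332 genes of over 1000 to 1500 bases (0.91, Spearman 0.81), then 0.79 up to 2500, 0.27 up to 4000 and −0.65 up to 6000 bases. Among the 1542 genes with an mRNA over 6000 bases it was −0.81 (Spearman −0.70). Without the 2 libraries farthest in the class median, the values of the shortest and longest class were 0.83 and −0.64. Without both libraries numbered 5 the values from the shortest to the longest class were 0.66, 0.75, 0.45, −0.17, −0.65 and −0.64. Of the 78 members, 59 have an mRNA of at most 1000 bases. Pairs of the other short genes had a median r of 0.045. For pairs of the 126 that were at least as abundant as the lowest member other than Rpl39l it was 0.14. After the median deviation of the short genes was subtracted from each member, an alternative chosen after seeing the data, the median r between members was 0.47. The part of transcript length in the pattern was not tested further.

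**Figure D5:**
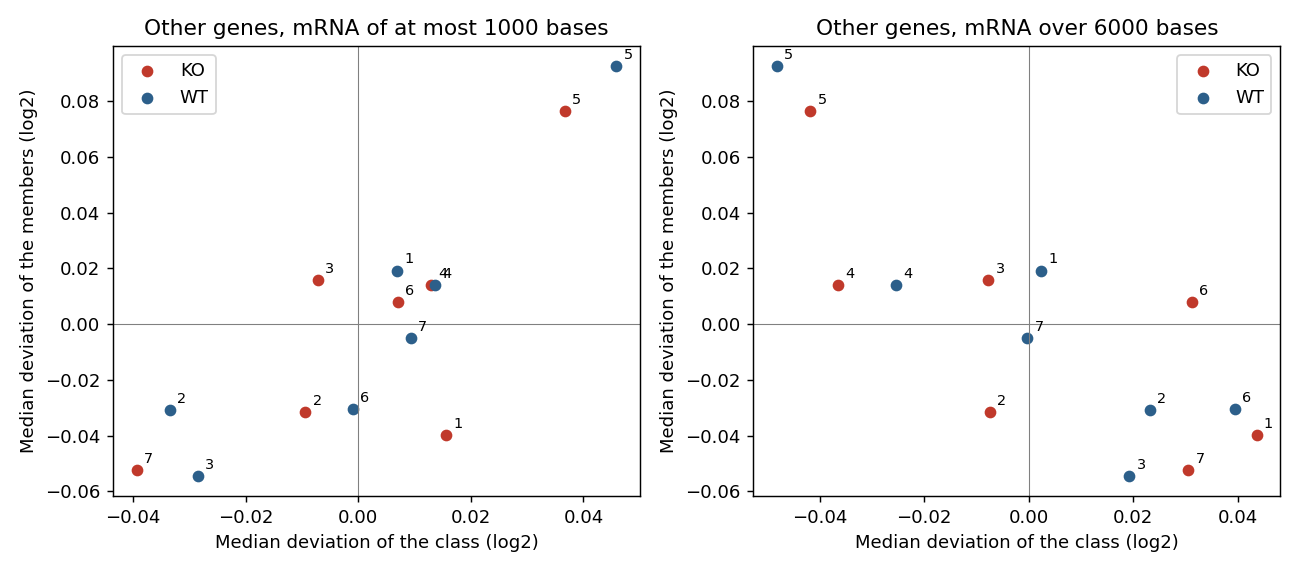
Median deviation of the members in each library against that of the other genes with an mRNA of at most 1000 bases (left) and over 6000 bases (right), in log2 units from the genotype mean, with replicate numbers beside the points (red, KO; blue, WT). The members rise with the short genes (r = 0.83) and fall with the long ones (r = −0.81), and replicate 5 of both genotypes is at the extreme of each panel.

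Markers of other cell types also moved with the members. The mean deviation of the 8 astrocyte markers correlated with the member median at r = −0.82 (Spearman −0.75, n = 14). It was −0.95 without WT replicates 4 and 5, the most distant in these markers, and −0.63 without both libraries numbered 5. All 78 members had a negative r with it. The astrocyte markers were lowest where the members were highest, at 28.6 CPM in KO replicate 5 and 35.2 CPM in WT replicate 5. WT replicate 4 went against this, with the most astrocyte marker reads (280.3 CPM) and the members above their mean (0.014). Markers of the oligodendrocyte lineage, of which 7 of 8 were tested, gave r = −0.82 (−0.60 without both libraries numbered 5, the most distant in these markers) and summed to 73.1 to 115 CPM in KO and 74.1 to 132 in WT, and neuronal markers gave −0.55 (−0.31 without both libraries numbered 5). Markers of border macrophages, which CD11b selection would also retain, were highest where the members were. The 3 tested of 4 summed to 367 to 628 CPM in KO and 326 to 705.5 in WT, with replicate 5 highest in both. Their mean deviation gave r = 0.57 (Spearman 0.44) and 0.14 without both libraries numbered 5. Singly Pf4 gave 0.79 and Mrc1 0.75, and the remaining tested marker, at a mean of 0.71 CPM in KO and 0.48 in WT, gave 0.26. Most of the sum was Mrc1, at a mean of 436 CPM in KO and 440 in WT. WT replicate 2 went against the relation, with a sum of 516 CPM and the members below their mean (−0.031). Of the markers that define these lineages Mog was under the filter, with 111 counts in all. Microglial markers and proliferation genes each gave r = 0.16, and −0.14 and −0.45 without both libraries numbered 5. The astrocyte markers had a median log2 fold change of −0.71 in KO with none past the threshold. Of the 8, 1 had an unadjusted p under 0.05 (S100b, −0.74 ± 0.27), beside 3.37% of all tested genes. The median r between these markers was 0.96, so they are not 8 independent genes. The part of other cells in the pattern of the members was not tested, and fewer cells of a type cannot be told apart from less RNA per cell in cultures measured in bulk.

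Genes outside the naming pattern were compared with the members. Fau, whose product is cleaved to the small subunit protein Rps30, had an r of 0.94 with the member median, and Rps3a1 0.92. Rpl22l1, a copy of Rpl22, had −0.28. None of the 7 genes of this group passed the threshold, and Rpl22l1 had the smallest p (log2 fold change −0.12 ± 0.057, adjusted p = 0.943, edgeR). Of 18 elongation factors and other genes with known TOP mRNAs, none passed at either level, and their median r with the members was 0.70. Btf3, a subunit of the nascent polypeptide-associated complex, reached 0.88 and the elongation factor subunit Eef1g 0.81, whereas Hnrnpa1 had −0.37.

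The machinery that makes ribosomes followed the members less than the genes with TOP mRNAs did. None of the 38 tested ribosome biogenesis genes passed the threshold, 2 had an unadjusted p under 0.05, both lower in KO, and the list had a median log2 fold change of −0.025 with 7 of 38 higher in KO by fitted sign, beside 3.37% under 0.05 and 50.8% higher among all genes. These 2 were Rpf2, needed for 5S particle assembly (−0.11 ± 0.050), and Nop58, a core protein of box C/D small nucleolar particles (−0.058 ± 0.027). The median r of this list with the members was 0.35, beside 0.070 for all other tested genes. The median mRNA length was 2394 bases in this list and 767.5 in the members, and the part of length was not tested. Between the genes of this list the median r was 0.27, so 7 of 38 is not a count of independent genes. RNA polymerase I genes had 0 of 14 at an unadjusted p under 0.05. Of 16 genes of mTOR signalling to translation, 1 was under 0.05, Rptor (0.086 ± 0.040, adjusted p = 0.943, edgeR), the subunit of mTORC1 that binds its substrates. The 78 mitochondrial ribosomal protein genes, which serve a separate ribosome, had a median log2 fold change of −0.012 and none at an unadjusted p under 0.05. Their median r was 0.40 with the members and 0.19 among themselves.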

How the data were processed

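The authors mapped reads to GRCm38 and deposited raw counts per gene, 1 column per library, without normalization. The submitters' processing notes name Trimmomatic 0.36, STAR 2.5.2b, featureCounts of Subread 1.5.2 and DESeq2. The strand setting, annotation release and batch of each library are not given in the sources used here, so the batch term of the study was left out. Genotypes came from the sample labels. Symbols and lengths came from GENCODE M21 (49056 of 49315 genes matched). A length is the shortest of the best-ranked coding transcripts. Genes were filtered with filterByExpr (minimum count 10, total 15), scaled by TMM and tested two-sided by quasi-likelihood (edgeR 4.0.16, R 4.3.3), a procedure first tested on simulated data. DESeq2 1.42.0 and limma 3.58.1 were alternatives. Log2 CPM used a prior count of 1. Intervals cover 95%. No library pair agreed within sampling noise (chi-square per degree of freedom at least 6.37 over 91 pairs). 0 count columns were left out. The members, gene lists and tests were chosen with earlier results of these data known. Members named were the 5 with the smallest p in each direction, the 4 highest and 4 lowest in level and in mean correlation, copies ending in l with their parent genes, the stalk proteins, Rpsa and the 2 with the largest and smallest SD. From other lists, up to 3 genes with the smallest p were eligible. Some of these genes are not reported here or drawn. Rpl38, Fau, Rps3a1, Btf3, Pf4, Mrc1, Eef1g, Hnrnpa1 and Ccng1 were named after their values were seen.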

Additional observations from a re-analysis of the deposited data

Results flagged for a closer look

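In groups of 7 libraries, a value was singled out where the gap between the highest or lowest library and the next exceeded Dixon's critical share of the whole range. This was checked for 62 groups, of 6 sums or ratios and 25 named members in each genotype, and 4 were singled out, where chance gives about 1 in 20. Of these, 2 were replicate 5 libraries. Rps29 had 342 CPM in WT replicate 5, against 297 to 313 in the other WT libraries, and Rpl31 had 355 CPM in KO replicate 5 against 331 to 339. The other two were KO replicate 4, with 293 CPM of Rplp2 against 267 to 278 and 67.6 CPM of Rps27l against 57.3 to 61.5. The member share and the subunit ratio were not singled out in either genotype.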

How the results depend on the processing

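The count of members past the threshold was 0 under each of the 22 alternatives of scaling, filter, tool, replicate block and left-out library. At an unadjusted p under 0.05 it was 1 without the filter (Rpl3l) and 0 to 2 with 1 library left out (Rps29 without KO replicate 1, Rps9 among the 2 without WT replicate 5). Of all genes, 1325 of 34582 were under 0.05 without the filter, 999 of 15840 without KO replicate 1 and 995 of 15833 without WT replicate 5. With the replicate block the count of members was 0 and their median log2 fold change was 0.010. In that fit 921 genes of all had an unadjusted p under 0.05, against 529 without the block. Same-numbered libraries came from different pools, and 3 of the 7 pairs had an r above 0.1 over all genes and 5 over the members (−0.46 to 0.89, mean 0.29). Of the 14 libraries, 3 over all genes and 5 over the members correlated best with the library of their own number. The main fit did not take the numbers as a pairing, and whether they mark a batch was not tested. Leaving out 1 library moved the median log2 fold change of the members from −0.00011 to 0.029 and the share difference from −0.014 to 0.027 percentage points. The median correlation between members was 0.59 with library totals alone, 0.66 by Spearman, 0.47 after the short-gene median was subtracted, 0.51 without both libraries numbered 5, and 0.62 to 0.74 with 1 library left out. The fitted sign turned for Rpl39l (−0.31 to 0.020 with 1 library left out) and Rps27l (−0.034 to 0.019), and for none of the other 8 members tried. The causes were not tested.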
